A study of Mus musculus with 8 samples.

Results

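The regions described here had a peak in every peak list of the series except the one named Tumor. They are 3655 of 138775 merged regions of accessible chromatin in the mouse liver. They were chosen by the presence and absence of called peaks: each overlapped by at least 1 bp a peak of both EpCAM-high lists (CK19 and Sox9) and of both Prog-like lists (CK19 and Sox9), and no peak of the Tumor Sox9 list. They are called Tumor-lacking regions below, after the list that holds no peak there. A missing peak means only that none was called. Signal under the calling threshold cannot be seen in a peak list, and the Tumor list is the shortest of the 5, with 39644 peaks against 56932, 59454, 71375 and 67855 in the order above.

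ATAC-seq uses a transposase that inserts adapters where DNA is exposed, and it was applied here to primary liver cells of a mouse model of hepatocellular carcinoma that carries a triple knockout of the Rb gene family. All cells were sorted for YFP, which reports that Cre had recombined floxed alleles, after enzymatic digestion of liver or of macroscopic lesions. The sources used here do not name the Cre driver, the age of the animals or the exons removed, and they give no group with intact Rb genes. The 8 samples fall into 5 groups: EpCam_High_CK19 (2 samples), EpCam_High_Sox9 (1 sample), Thy1+ CK19 (2 samples), Thy1+ Sox9 (1 sample) and Epcam- (2 samples). Both EpCAM-high lists are named as 2 of these groups are, whereas the names Prog-like and Tumor occur in no sample title, so those lists were tied to no sorted group. Each condition has 1 peak list, read depth is unknown, and no peak list has a replicate. No difference between lists could therefore be tested against replicate error, and the intervals given (exact Clopper-Pearson, 95%) reflect counting error only. Neighbouring regions are not independent, so the true uncertainty is wider.

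Open chromatin in a cell nucleus is of 2 broad kinds. Promoters, at the starts of genes, are often rich in CG dinucleotides and tend to be open in many cell types, whether or not the gene is strongly transcribed. Enhancers lie within or between genes, sometimes far from the gene they act on, and are open in a more cell-type-restricted way. In the liver, hepatocytes, bile duct cells and the immune, endothelial and stromal cells around them share most open promoters and differ mainly in their open enhancers.

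The sequences just upstream of 5 start sites with a Tumor-lacking region are shown to give the letters of the chromatin concerned. Etv1 (chr12:38779832-38780081, plus strand) and Oat (chr7:132576399-132576648, minus strand) had 2 of the 10 gene-end regions with the strongest peaks. Lfng (chr5:140607091-140607340, plus strand), Junb (chr8:84978749-84978998, minus strand) and Twist1 (chr12:33957421-33957670, plus strand) stand for the Notch, AP-1 and mesenchymal genes described further on. The windows are the 250 bases before the start site in RefSeq's GRCm38.p6 annotation, which is the mm10 build of the peak lists, and none of them overlaps an annotated gene. The Etv1, Oat and Lfng windows lay wholly inside their regions, and 232 bases of the Junb window and 96 bases of the Twist1 window did. Capitals mark matches on either strand to any of 14 motifs spelled out later.
Etv1: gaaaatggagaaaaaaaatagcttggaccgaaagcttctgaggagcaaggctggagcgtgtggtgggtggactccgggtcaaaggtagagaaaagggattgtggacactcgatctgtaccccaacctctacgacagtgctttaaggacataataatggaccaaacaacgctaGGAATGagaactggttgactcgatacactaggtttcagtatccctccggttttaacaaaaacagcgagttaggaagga
Oat: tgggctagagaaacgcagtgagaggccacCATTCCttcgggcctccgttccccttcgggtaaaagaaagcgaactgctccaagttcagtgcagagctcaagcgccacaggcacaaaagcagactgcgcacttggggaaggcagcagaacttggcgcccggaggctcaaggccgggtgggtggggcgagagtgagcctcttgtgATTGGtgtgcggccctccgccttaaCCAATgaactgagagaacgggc
Lfng: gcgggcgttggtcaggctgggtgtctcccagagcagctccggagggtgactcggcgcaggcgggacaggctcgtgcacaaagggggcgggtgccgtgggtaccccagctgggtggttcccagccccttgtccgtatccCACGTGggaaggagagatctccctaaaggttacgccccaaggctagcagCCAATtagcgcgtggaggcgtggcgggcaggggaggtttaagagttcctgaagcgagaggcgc
Junb: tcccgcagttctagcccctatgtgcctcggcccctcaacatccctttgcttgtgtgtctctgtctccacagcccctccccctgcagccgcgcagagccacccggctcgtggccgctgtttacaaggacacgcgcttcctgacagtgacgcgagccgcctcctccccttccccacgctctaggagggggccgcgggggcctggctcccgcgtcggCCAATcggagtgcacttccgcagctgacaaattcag
Twist1: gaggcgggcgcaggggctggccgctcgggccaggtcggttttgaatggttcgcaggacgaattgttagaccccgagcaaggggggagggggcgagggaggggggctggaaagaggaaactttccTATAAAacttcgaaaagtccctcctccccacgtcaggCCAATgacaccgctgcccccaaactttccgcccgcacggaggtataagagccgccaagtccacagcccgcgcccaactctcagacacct
A match is a description of the letters and not a site of binding. The capitals mark a TEAD match in Etv1, 2 CCAAT boxes (1 on each strand) and a TEAD match in Oat, an E-box and a CCAAT box in Lfng, a CCAAT box in Junb, and a TATA box and a CCAAT box in Twist1.

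Of 17184 regions with a peak in the 4 other lists, 3655 had no Tumor peak, which is 21.3% (20.7 to 21.9). This share comes from the rule itself and is given as a description. The corresponding share was 4.67% (663 of 14192 regions) with the EpCAM-high CK19 list in the Tumor list's place, 3.54% (496 of 14025) for EpCAM-high Sox9, 1.39% (191 of 13720) for Prog-like CK19 and 6.77% (983 of 14512) for Prog-like Sox9. The Tumor list was thus the one most often missing. When every list was reduced to its 39644 strongest peaks, 1618 of 12270 regions lacked a Tumor peak, or 13.2% (12.6 to 13.8), against 2.45% to 4.71% for the other lists. All 1618 overlapped a Tumor-lacking region of the full lists. When peaks under a −log10 q of 5 were dropped from every list, 3585 of 15700 regions (22.8%) lacked one. Next to the threshold, the 5 regions of all 5 lists with the weakest Tumor peak had a Tumor −log10 q of 1.32 (in G6pdx) or 1.38 (in or near Inpp1, Rreb1, Trp53rkb and Mrps28). The lowest −log10 q of the 5 lists ranged from 1.30 to 1.32. On the other side, the weakest Tumor-lacking regions were those near or in Adamts1, Xbp1, Trak1, Chd3 and Sptlc3. Their lowest −log10 q in the 4 lists was 1.66, 1.49, 1.44, 1.37 and 1.33, so their weakest peaks lay close to it too.

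Tumor-lacking regions lay mostly away from genes' ends, where enhancers are found. Of the 3653 on assembled chromosomes, 689 (18.9%, 17.6 to 20.2) lay no more than 1000 bp from an end of a protein-coding gene, 1501 (41.1%, 39.5 to 42.7) elsewhere in a gene body and 1463 (40%, 38.5 to 41.7) between genes. The annotation used for gene positions gives no strand or exons, so exons and introns were not separated. Regions open in all 5 lists had the reverse make-up, with 63.4% (62.5 to 64.2) at a gene end, 19.4% in gene bodies and 17.3% between genes. Position had no part in the rule. The regions missing from 1 other list alone also had a smaller gene-end share than those open in all 5 lists. Gene ends made up 18.1% of those missing from EpCAM-high CK19 and 20.7% for EpCAM-high Sox9, near the 18.9% above. The share was 12.6% (8.26 to 18.2) for Prog-like CK19 and 27.4% (24.6 to 30.3) for Prog-like Sox9, to either side of it. A low share at gene ends was therefore common to regions that 1 list lacked. An annotated start site lay within 1000 bp of 571 Tumor-lacking regions (15.6%), against 56.0% of those open in all 5 lists.

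**Figure D1:**
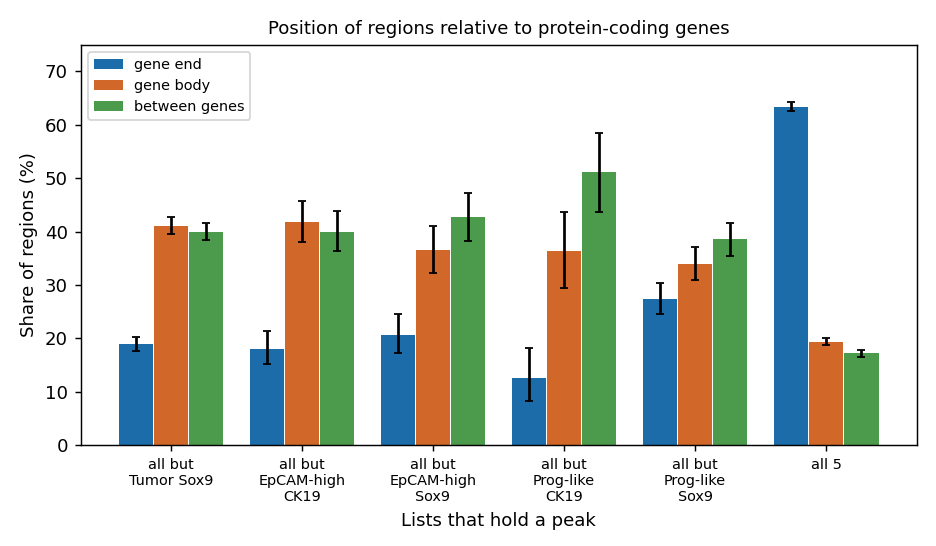
Position of regions relative to protein-coding genes, as the share of regions (%) within 1000 bp of a gene end, elsewhere in a gene body or between genes, by which lists hold a peak. Bars are shares and error bars exact 95% intervals. The gene-end share is 18.9% for regions open in all but Tumor Sox9 and 63.4% for regions open in all 5 lists.

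The between-gene regions were not all remote. Their median distance to the nearest protein-coding gene was 27107 bp, with quartiles of 10254 and 75970 bp, and 275 of the 1463 (18.8%) lay 100 kb or more away. A further 187 (12.8%) lay within 1000 bp of an end of a noncoding gene. The nearest Tumor peak was often far off too. Its median distance was 16923 bp (quartiles 5344 and 47686), 2285 regions (62.5%) were at least 10 kb from one, and 418 (11.4%) at least 100 kb. At the other extreme 180 regions (4.92%) had a Tumor peak within 1 kb, the closest at 86 bp. The 5 regions farthest from a Tumor peak were near Gm40862 (chr12:23189158-23189995; 1273650 bp away), at an end of Arhgap28, which encodes a GTPase-activating protein (chr17:68003767-68004785; 1121199 bp), a pair in Tafa5, which encodes a secreted protein (chr15:87623844-87625158 and chr15:87625300-87625883; 1107905 and 1107180 bp), and at an end of Shroom4 (chrX:6399332-6400994; 917437 bp). The Arhgap28 region ranked higher in the EpCAM-high lists (percentiles 90.0 and 99.1) than in the Prog-like lists (62.9 and 37.2).

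Peaks were ranked by the authors' −log10 p within their own list, so that a percentile of 100 is the strongest peak of that list. Tumor-lacking regions had middling peaks in the 4 lists that hold them, with median percentiles of 54.8 and 54.2 in the EpCAM-high lists (CK19, then Sox9) and 57.8 and 55.9 in the Prog-like lists (likewise). Regions open in all 5 lists had 77.1, 79.1, 81.5 and 78.4 in the same order. They were also narrower, with a median of 731 bp (quartiles 535 and 1038) against 1125 bp (852 and 1462). The share of regions that lacked a Tumor peak was lower where peaks were stronger. Where the lowest of a region's 4 percentiles was under 20, 46.3% (44.2 to 48.4) of 2213 regions lacked one, and where it was 80 or more, 3.13% (2.63 to 3.68) of 4383 did.

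Position and strength both went with the missing peak. At gene ends the share ran from 30.6% (27.3 to 34.0) in the lowest range to 1.17% (0.838 to 1.58) in the highest. In gene bodies it ran from 53.4% (49.8 to 57.0) to 9.58% (7.15 to 12.5), and between genes from 55.4% (51.6 to 59.1) to 13.2% (9.86 to 17.1). Within every one of the 5 strength ranges the share was lower at gene ends than in gene bodies or between genes. In the 3 middle ranges it was 20.4%, 9.14% and 2.98% at gene ends, 47.1%, 37.4% and 21.9% in gene bodies, and 49.6%, 34.4% and 25.7% between genes. The difference in position between Tumor-lacking and shared regions was thus present among peaks of like rank. The lists' summits also lay close together in these regions: the 4 lists' summits fell within 100 bp of each other in 51.9% (50.3 to 53.5), against 56.8% (55.9 to 57.6) for regions open in all 5 lists, where the Tumor summit was not counted.

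**Figure D2:**
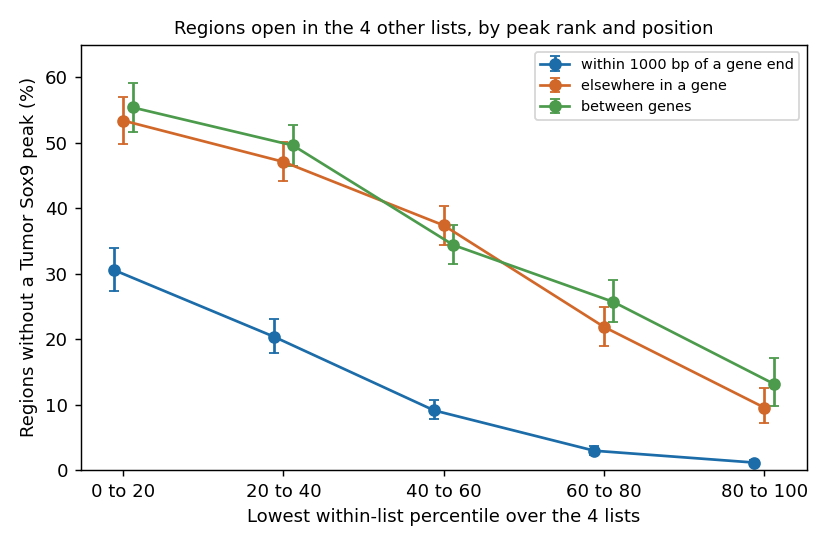
Share of the regions open in the 4 other lists that lacked a Tumor Sox9 peak (%), against the lowest within-list percentile of the region over the 4 lists, in ranges of 20, by position. Points are shares and bars exact 95% intervals. Gene-end regions run from 30.6% to 1.17% and lie under the other 2 classes in every range.

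The strongest Tumor-lacking regions were few but ranked near the top of all 4 lists. Only 137 had a lowest percentile of 80 or more. The highest was a region between genes on chromosome 13 (chr13:4771099-4772053), 161935 bp from Akr1e1, which encodes an aldo-keto reductase. Its percentiles were 99.8 and 98.7 in the EpCAM-high lists (CK19, then Sox9) and 98.5 and 99.2 in the Prog-like lists (likewise), and the nearest Tumor peak was 55694 bp away. Next was the start of Spata6, a gene named for its part in sperm formation (chr4:111719566-111720857), with percentiles of 98.5, 98.3, 98.0 and 96.9 in that order and −log10 q values of 175, 122, 290 and 195. Etv1, which encodes an ETS-family transcription factor, had 2 such regions. The one at its annotated start site (chr12:38778147-38780675) had percentiles of 97.0, 97.6, 95.6 and 94.9, and the other, within the gene (chr12:38787669-38789405), 99.6, 96.7, 96.4 and 98.2. The nearest Tumor peak was 121305 bp from the first and 117117 bp from the second.

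Tlr4, which encodes the receptor for bacterial lipopolysaccharide, had a region over its outer end (chr4:66827273-66829344) with percentiles of 98.3, 96.1, 98.8 and 97.6 and folds of 9.98, 12.6, 10.2 and 9.98 over background in the authors' lists. The Tumor list held no peak within 10 kb of Tlr4, and its nearest was 153363 bp from the region. The rest of the 10 strongest lay in Sfi1 (chr11:3153458-3154609), near Ctsc, which encodes the lysosomal protease cathepsin C (chr7:88270090-88272181), and in Cd55, which encodes an inhibitor of complement (chr1:130462020-130463201), Plxdc2 (chr2:16490811-16491808) and Rps6ka2, which encodes a ribosomal S6 kinase (chr17:7169337-7170478). Their lowest percentiles were 94.8, 94.7, 94.6, 94.5 and 94.3. Sfi1 and Ctsc had a Tumor peak within 3883 and 5366 bp, whereas the nearest to the other 3 was 111504 to 220259 bp away. Among gene-end regions, Spata6, Tlr4 and Etv1 were followed by Pip4k2a, which encodes a phosphoinositide kinase (chr2:18997341-18998757, lowest percentile 93.7), the Src-family kinase gene Fyn (chr10:39369290-39370764, 93.6) and Vamp9 (92.7). Galnt3, which encodes an enzyme of O-linked glycosylation, came next (92.5), then the ephrin receptor gene Ephb3 (92.5), Lrfn2 (92.2) and Oat, which encodes the mitochondrial enzyme ornithine aminotransferase (91.7).

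By nearest protein-coding gene, the 3653 regions were spread over 2667 genes, and 2012 of these were nearest to 1 region alone. Only 33 genes were nearest to 5 or more. Eps8, which encodes a regulator of the actin cytoskeleton, and the zinc-finger gene Zfp608 each had 8, of which 6 and 0 were kept with lists of equal length. Cited2, which encodes a transcriptional co-regulator, had 7, all between genes (chr10:17186031 to 17698419), of which 6 were kept. Elmo1, which encodes an activator of Rac signalling in cell engulfment, Tenm4 and Tmsb4x, which encodes the actin-binding thymosin beta-4, also had 7. Kitl, which encodes the ligand of the KIT receptor, had 6 regions, 5 of them between genes, and Klf6, a zinc-finger transcription factor gene, likewise had 6 and 5.

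Counted by locus (a gene and 10 kb on each side), 2607 of 21887 protein-coding genes (11.9%) held a Tumor-lacking region, 464 held 2 or more and 13 held 5 or more. Most of these loci were not without Tumor peaks: 1991 of the 2607 (76.4%) held a Tumor peak as well, and 616 held none. Long genes collect more regions, and the loci with a Tumor-lacking region had a median gene length of 36671 bp, against 17.2 kb for all protein-coding genes. The 13 were Elmo1, Eps8 and Plekha2 (7 each), Celf4, Maml2 and Mbnl2 (6 each), and, tied at 5 each, Cmss1, Filip1l, Hecw2, Kif5c, Pdgfc, Prkch and Tenm4. Cmss1 and Filip1l overlap each other and share regions. Plekha2 is short for this group (65.5 kb), and its 7 regions stood beside 1 Tumor peak. Of the 13, 2 held no Tumor peak at all: Tenm4, and Kif5c, which encodes a kinesin motor protein. The 5 regions of Kif5c (chr2:49619010 to 49764829) were not ranked alike by the 4 lists. The one at the gene's outer end had percentiles of 93.7 and 98.2 in the EpCAM-high lists and 40.9 and 11.5 in the Prog-like lists, whereas chr2:49743202-49745179 had 50.7 and 51.3 against 97.2 and 95.5.

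Tumor-lacking regions were found both singly and in runs of neighbours. When the 17184 regions were read along each chromosome, the Tumor-lacking ones formed 2537 unbroken runs, and 1818 of the 3655 regions (49.7%) stood alone between regions with a Tumor peak. Runs of 5 or more numbered 35 and held 204 regions. The longest had 10 regions on chromosome X (chrX:166660949-167333254), over Tmsb4x, Tlr8 and Tlr7. Its strongest, chrX:167091752-167092506, had percentiles of 93.9, 94.0, 95.4 and 91.3, and 3 Tumor peaks not shared by all the other lists lay inside the run. A run of 8 on chromosome 10 (chr10:122544122-122807549) crossed Ppm1h, which encodes a protein phosphatase, and held no Tumor peak. The strongest of the 8, chr10:122678466-122680861, had percentiles of 96.4, 97.9, 93.5 and 95.9, and the weakest, chr10:122806975-122807549, 27.1, 22.4, 44.0 and 46.2. Another run of 8 lay at Eps8 (chr6:137558579-137697419) with 1 Tumor peak inside. Within it, chr6:137560296-137560898 had percentiles as low as 9.26 and chr6:137558579-137559447 as high as 96.1, so neighbours in a run differed widely in rank. Another Tumor-lacking region lay within 10 kb of 521 of the 3655 (14.3%).

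Across chromosomes the share of regions without a Tumor peak ranged from 14% (12 to 16.3) on chromosome 11 (150 of 1069) to 26.5% (23.5 to 29.6) on chromosome 13 (216 of 816). The intervals of chromosomes 10 (25.5%, 22.8 to 28.3), 15 (24.8%, 21.6 to 28.2), 11 and 13 lay wholly to one side of the genome-wide 21.3%. Chromosome 11 had the largest share of its regions at gene ends (65.4%), and chromosome 13 had 47.3%. Away from gene ends chromosome 11 was still lowest, at 30.8% (26.1 to 35.8), and chromosome 19 was highest, at 43.7% (36.7 to 50.9), with chromosome 13 at 43.0% (38.3 to 47.9). On chromosome 11 the share was 6.78% (3.55 to 11.5) between 80 and 100 Mb and 21.4% (14.2 to 30.2) in the first 20 Mb. On chromosome 13 it was 39.8% (29.5 to 50.8) in the first 20 Mb and 11.9% (6.98 to 18.7) between 60 and 80 Mb. The number of Tumor peaks per mean peak of the 4 other lists was 0.621 on chromosome 11 and 0.513 on chromosome 13, and it ran from 0.505 (chromosome 4) to 0.726 (chromosome 14). No region of chromosome Y was open in all 4 lists. Copy number was not measured, and its part in these shares was not tested.

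**Figure D3:**
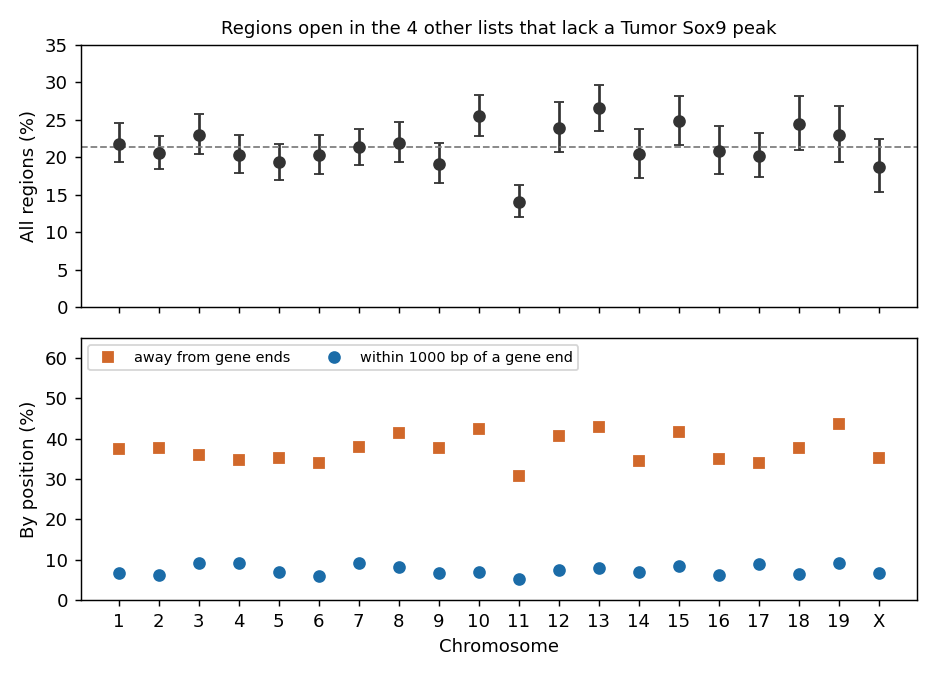
Share of the regions open in the 4 other lists that lacked a Tumor Sox9 peak (%), by chromosome. The upper panel shows all regions with exact 95% intervals and the genome-wide 21.3% as a dashed line, and the lower panel splits them by position. Chromosome 11 is lowest at 14% and chromosome 13 highest at 26.5%.

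The 4 lists did not rank the Tumor-lacking regions alike. Over the 3655 regions Spearman's rank correlation of the percentiles was 0.70 between the EpCAM-high lists and 0.91 between the Prog-like lists, but 0.16 to 0.21 between an EpCAM-high and a Prog-like list. These are descriptions over regions of the same libraries. The mean Prog-like percentile exceeded the mean EpCAM-high percentile by over 25 points in 779 regions (21.3%) and was lower by as much in 683 (18.7%), and the median difference was 1.84 points (quartiles −17.8 and 20.8). The regions most tilted to the Prog-like lists all lay between genes. They were nearest to the iron exporter gene Slc40a1 (chr1:45880343-45881956; 3.26 and 3.16 in the EpCAM-high lists against 95.1 and 92.9), Gm11232, Camk1g, Abcb5 and Cd47, which encodes the surface protein that restrains phagocytosis (chr16:49839615-49840841; 7.70 and 32.0 against 97.1 and 98.2). Those most tilted to the EpCAM-high lists were at an end of the G-protein gene Gnai1 (chr5:18359458-18360838; 96.1 and 98.6 against 13.2 and 9.38) and of Macc1 (chr12:119390139-119390901; 99.5 and 95.1 against 12.1 and 14.5), and nearest to Lekr1, Atp10a and the ephrin gene Efnb2. Regions that share the lack of a Tumor peak thus included both strongly EpCAM-high and strongly Prog-like ones.

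**Figure D4:**
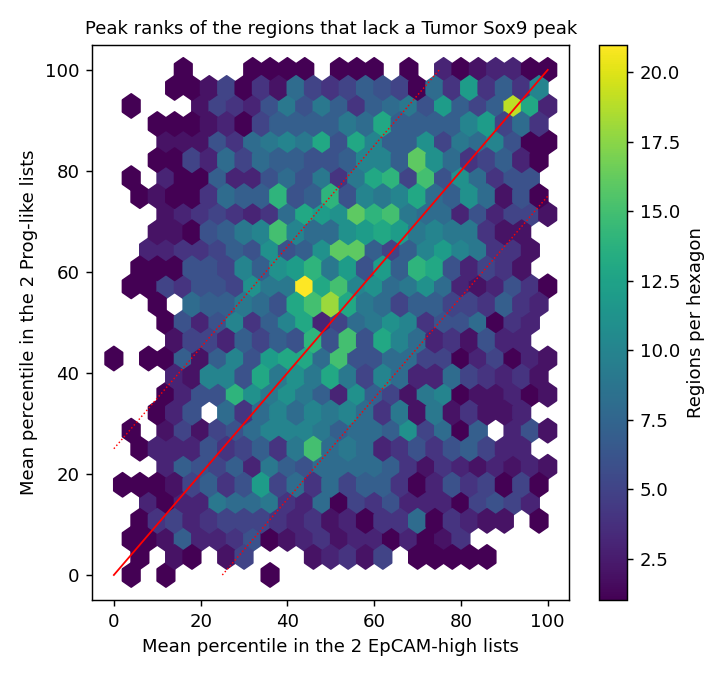
Mean within-list percentile of each Tumor-lacking region in the 2 Prog-like lists against that in the 2 EpCAM-high lists, as regions per hexagon. The solid line marks equality and the dotted lines 25 points to either side. Of the 3655 regions 779 lie above the upper dotted line and 683 below the lower one.

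At gene ends the regions touched 747 of 21887 protein-coding genes (3.41%), of which 635 had no Tumor peak at either end and 356 (47.7%) none in the whole locus. Many genes could not be counted: 10405 had any gene-end region open in the 4 lists, and the 747 were 7.18% of these. Among 20 lists of genes for liver cell types, signalling and growth control, 21 of 485 matched genes had one, and with lists of equal length 7 had. AP-1 and immediate early genes, which respond within minutes to growth factors and stress, had 4 of 26: Junb, Jund, Egr3 and Ier3. The region over the start of Junb (chr8:84978356-84978980) had percentiles of 59.5 and 75.6 in the EpCAM-high lists and 69.6 and 63.2 in the Prog-like lists, with CK19 before Sox9 in each pair and from here on. Tumor peaks stood on both sides of it, the nearer (chr8:84977956-84978202) 153 bp away. Jund, Egr3 and Ier3 likewise had a Tumor peak within 681, 766 and 674 bp, so the AP-1 entries are gaps beside Tumor peaks and not closed loci. Of the 4, Junb, Egr3 and Ier3 were kept with lists of equal length.

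Notch genes had gene-end regions at 3 of 18 members, and with lists of equal length at Lfng alone. Notch signalling directs progenitor cells towards bile duct fate, and Jag1 encodes a ligand, Lfng an enzyme that modifies the receptor, and Hes1 a target. Lfng had 2 Tumor-lacking regions and no Tumor peak within 10 kb. The one over its start site (chr5:140606919-140607724), whose upstream letters are printed above, had percentiles of 50, 35.3, 81.2 and 77.0 in the order above. The other (chr5:140610569-140611976) had the opposite tilt, with 90.8, 89.7, 25.3 and 31.2. At Jag1 the region lay near the far end of the gene (percentiles 58.4, 72.6, 35.9 and 46.0), while the start held a Tumor peak at the 99.5 percentile of its list. At Hes1 the region's 4 percentiles were all low (25.7, 19.7, 22.3 and 17.3), and a Tumor peak lay 874 bp away. Over whole loci, 14 of 30 Notch-locus regions open in the 4 lists lacked a Tumor peak (46.7%, 28.3 to 65.7), against 17.6% (17.0 to 18.2) for all protein-coding genes. Of the 14, 6 lay in Maml2, a long gene for a Notch co-activator, and without it the share was 8 of 22 (36.4%, 17.2 to 59.3). Other lists had shares within that interval: 42.9% (17.7 to 71.1) at endothelial, 37.5% (8.52 to 75.5) at oncofetal, 35.7% (12.8 to 64.9) at stellate and mesenchymal and 33.3% (9.92 to 65.1) at biliary and epithelial loci. None of these shares was matched for position. Over all regions open in the 4 lists the share was 7.46% at gene ends, 36.5% in gene bodies and 38.6% between genes. All 6 Maml2 regions lay in the gene body, so the 17.6% is not a background of like position.

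Cell-type genes of the tumour's surroundings and of ducts contributed single entries. Ptprc, the pan-leukocyte gene for CD45, had a region over a start site (chr1:138174174-138175770) with percentiles of 70.8, 25, 83.6 and 86.1 and no Tumor peak in its locus. It was the 1 of 28 macrophage and myeloid genes with a gene-end region, and none of 24 T, NK and B cell genes had one. Against 3.41% of all genes these counts say little, since 7 of the 28 and 3 of the 24 had a gene-end region open in the 4 lists. The endothelial VEGF receptor gene Flt1 (chr5:147725075-147727385; 66.5, 57.8, 39.0 and 46.5) was 1 of 17, and the mesenchymal transcription factor gene Twist1 (chr12:33957575-33958908; 62.2, 49.5, 5.28 and 9.38) 1 of 23. The nearest Tumor peak to the Twist1 region was 399731 bp away. Among the biliary and epithelial genes the splicing regulator gene Esrp1 had one (chr4:11386525-11388520; 90.1, 91.4, 17.0 and 3.06), which ranked higher in the EpCAM-high lists. The oncofetal genes Lin28b (53.3, 50.6, 18 and 18.5) and Cd24a (60.9, 72.2, 17.1 and 8.54), 2 of 13, were tilted the same way. None of 30 hepatocyte genes had one, and 6 of the 30 had a gene-end region open in the 4 lists. With lists of equal length the counts for macrophage and myeloid, endothelial, stellate and mesenchymal, biliary and epithelial, and oncofetal genes were all 0.

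Of the remaining lists, Wnt genes had 2 of 22, and 0 with lists of equal length. Lef1, a transcription factor of the pathway (60.9, 61.4, 4.51 and 0.239), passed into the set by a Prog-like Sox9 peak of −log10 q 1.73, and the inhibitor gene Nkd1 had 4 weak peaks (20.7, 25.8, 16.5 and 18.5). Interferon and antigen presentation genes had 2 of 28 (1 at equal length), Oasl1 (45.7, 38.9, 63.9 and 59.3) and Tapbp, which encodes tapasin (54.7, 60.4, 50.7 and 12.3). Tlr4 was 1 of 29 NF-kB and inflammation genes. No Tumor-lacking gene-end region was found among 22 TGF-beta, 19 YAP and Hippo, 32 circadian and nuclear receptor or 32 chromatin regulator genes. Over whole loci 6, 3, 8 and 7 of these genes held one, against 11.9% of all genes. Of their locus regions open in the 4 lists 17.1%, 14.8%, 16.4% and 15.3% lacked a Tumor peak, near the 17.6% for all protein-coding genes. A region at each of Per1, Hdac1 and Hdac7 had an annotated start site, of that gene or a neighbour, within 1000 bp.

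The mouse model acts on growth control genes. Of 31 E2F and cell cycle genes 29 had a gene-end region open in the 4 lists, and 0 of these genes had a Tumor-lacking one. The same held for the p53 pathway and tumour suppressor list, with 29 and 0 of 32. Over whole loci 2 of the 31 (E2f2 and Tk1) and 3 of the 32 held a Tumor-lacking region, against 11.9% of all genes. A region of E2f2 (chr4:136179456-136181032) and that of Tk1 had an annotated start site within 1000 bp, though not an end of the gene. Among 15 genes of the Rb family and cyclin-dependent kinase control, Cdkn2a alone had a gene-end region that the Tumor list lacked. With 3.41% of all genes and 7.18% of those with an open gene end having one, counts of 0 or 1 in lists of this size are near the background and are not a result about these genes. Cdkn2a, whose alternative first exons give distinct inhibitors of the cell cycle, held 2 Tumor-lacking regions. The first, beyond its far end (chr4:89273352-89274354), had low percentiles of 33.7, 8.82, 13.9 and 17.2. The second lay over an inner start site at 89282192 (chr4:89281725-89282549), with 32.5, 22.4, 62.5 and 82.0. The Tumor list had a peak over the outer start of the gene (chr4:89294503-89296127, 86.6 percentile of its list) and another within it (chr4:89276270-89276574, 46.3 percentile). Neither Cdkn2a region was kept with lists of equal length. Cdk6, which encodes a G1 kinase, held 2 regions inside the gene (chr5:3494361-3494983, percentiles 71.1, 90.8, 66.6 and 87.5, and chr5:3516468-3517204, 50.7, 77.1, 79.9 and 74.3), and Ccnd1, Ccnd2, Ccnd3 and Cdkn1a held 1 each in their loci. Over whole loci 6 of the 15 genes held a Tumor-lacking region, against 11.9% of all genes. Of the regions of these loci open in the 4 lists, 8 of 35 lacked a Tumor peak (22.9%, 10.4 to 40.1). That interval includes the 17.6% for all protein-coding genes, so the named loci are not shown to stand out. Rb1, Rbl1, Rbl2, Trp53 and Myc held no Tumor-lacking region, nor did the sorting and lineage genes Thy1, Epcam, Krt19, Sox9, Alb, Hnf4a and Afp. For Rbl1, Thy1, Krt19, Sox9, Alb and Afp there was no region of all 5 lists in the locus either. No region of these loci was thus open in the 4 other lists, and a Tumor-lacking one could not occur. The Tumor list did hold peaks in some of them, 1 at Rbl1, 3 at Sox9, 4 at Alb and 4 at Afp, but none at Thy1 or Krt19.

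**Figure D5:**
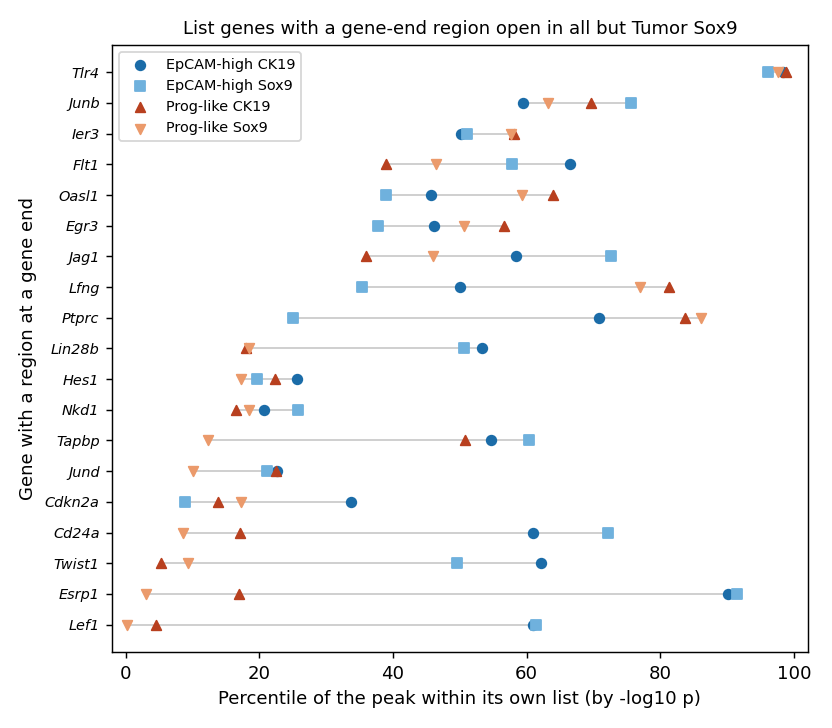
Within-list percentile (by −log10 p) of the gene-end Tumor-lacking region of each of 19 list genes, with 1 symbol per list and a line from the lowest to the highest. Genes are ordered by their lowest percentile. Tlr4 is above 96 in every list. Esrp1, Twist1 and Lef1 rank higher in the EpCAM-high lists (49.5 to 91.4) than in the Prog-like lists (under 20).

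The cells' markers were read in the same way. Of 6 biliary marker genes 3 had a Tumor gene-end peak, as did 5 of 6 hepatocyte markers, 1 of 6 macrophage markers (among Ptprc, Adgre1, Csf1r, Lyz2, Cd68 and Spi1), 1 of 5 T and NK, 0 of 4 B, 0 of 5 endothelial, 2 of 6 stellate and mesenchymal and 1 of 4 erythroid and megakaryocyte markers. The share of all genes with a Tumor gene-end peak and the marker counts of the other 4 lists are not given here. These few genes per cell type are therefore no measure of the cells behind the Tumor list. Of these markers Ptprc, Cps1 and Acta2 had a Tumor-lacking region in their locus. In bulk samples a lower share of a cell type and a closed region in the same cells cannot be told apart.

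The promoters within Tumor-lacking regions were less CG-rich than those open in all 5 lists. RefSeq promoter windows (250 bases before to 50 after a start) overlapped such a region at 573 start sites of 524 genes. Their median GC content was 60.7%, against 62.3% for 9398 promoters in regions of all 5 lists and 48.0% for 8115 with no peak in any list. The observed over expected ratio of CG dinucleotides had a median of 0.647 (quartiles 0.404 and 0.813), against 0.813 (0.668 and 0.941) and 0.206 (0.103 and 0.367). With CG-rich taken as a GC content of at least 55% and a ratio of at least 0.65, 46.2% (42.1 to 50.4) were CG-rich, against 67.6% (66.7 to 68.6) and 6.90% (6.36 to 7.47), and 38.0% of all 21263 promoters. They thus lay between constantly open and never called promoters. The promoter sets here and in the motif counts below were not matched for peak rank. Promoters in regions missing from another list were not read, so whether these differences are particular to the Tumor list was not tested. The Etv1 window, with a GC content of 48.7% over the 300 bases, was at the low end of the printed ones, and Lfng, Twist1, Junb and Oat had 66.7%, 66.0%, 65.3% and 61.7%.

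Motifs were searched on both strands of the 300-base windows, and overlapping matches were kept. The PU.1 and ETS letters share the core GGAA. The ETS motif CCGGAAGT was in 3.66% (2.28 to 5.55) of the 573 windows, 9.98% (9.38 to 10.6) of those open in all 5 lists and 5.15% of all promoters. The NRF1 motif GCGCATGC was in 1.57% (0.721 to 2.96), 6.50% (6.01 to 7.02) and 3.52%. Both were thus scarcer than in promoters open throughout. The myeloid PU.1 motif GAGGAAGT went the other way, with 5.41% (3.71 to 7.59), 2.75% (2.42 to 3.10) and 3.13%. The HNF1 letters GTTAATNAT were in 4 of the 573 windows (0.698%, 0.191 to 1.78), 0.202% (0.122 to 0.316) and 0.720%, with intervals that overlapped. The TATA motif TATAAA was in 8.20% (6.09 to 10.8), 5.54% (5.09 to 6.03) and 12.6%, between the promoters open throughout and all promoters. The AP-1 motif TGANTCA was in 5.76% (4.0 to 7.99), 3.87% (3.49 to 4.28) and 6.99%.

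In the same order SP1 (GGGCGGGG) was in 34.0%, 37.2% and 23.6%, the CCAAT box (CCAAT) in 38.6%, 39.3% and 38.2%, and CRE (TGACGTCA) in 3.49%, 3.79% and 2.23%. YY1 (AAGATGGC) was in 3.49%, 5.13% and 3.05%, and the E-box (CACGTG) in 8.38%, 11% and 7.84%. RUNX (TGTGGTT) was in 3.32%, 3.05% and 4.71%, TEAD (GGAATG) in 12.6%, 10.7% and 13.6%, and E2F (TTTGGCGC) in 0.349%, 1.15% and 0.635%. The E2F count rests on 2 of the 573 windows. Sequence was read for promoter windows alone, which cover a minority of the Tumor-lacking regions.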

How the data were processed

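ATAC-seq peak lists of 5 conditions were used, 1 list per condition. Bowtie 1.1.2, deepTools, HOMER, MACS2 and the build mm10 are listed in the submitters' processing notes, without the role of each. Whether libraries were pooled, reads shifted or duplicates removed is not given in the sources used here. The lists have the narrowPeak layout, in which the authors deposited a whole-number score, a fold enrichment (a linear ratio), −log10 p and −log10 q values and the summit's offset within the peak. These deposited fold and −log10 values were used to order or threshold peaks inside 1 list at a time. Read depth is unknown.

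All peaks were merged into regions (overlap of at least 1 bp) with Python 3.11.15, pandas 2.3.3, numpy 2.4.6 and scipy 1.17.1. A region's value in a list is that of its strongest peak there. Gene positions, start sites and promoter sequences are those of RefSeq for GRCm38.p6, for 21887 protein-coding genes. Of 488 list genes 485 matched; Mx1, Mx2 and H19 did not. Genes were named by these rules: the 10 regions, and the 10 gene-end regions, with the highest value of their lowest percentile; the 10 loci with the most regions (7 loci tied for the last 4 places, so all 13 were named); list genes with a gene-end region; the 5 regions farthest from a Tumor peak; 15 genes of the model and of cell identity; and 5 regions on each side of the threshold. Genes named by nearest gene, by run or by tilt between lists were chosen after their values were seen, as were Cdk6, the cyclin D genes, E2f2 and Tk1. Of the list genes with a gene-end region, 2 are not reported here. The NRF1 and HNF1 motifs were shortened after their first matches were seen. The members and gene lists were chosen with earlier results of these data known. The code of the overlap rule was run on simulated data, where 500 of 500 regions without a Tumor peak among 3000 were recovered. The simulated peaks of a region always overlapped and the regions stood well apart. The run therefore checks the code alone and not how the rule performs on these data.

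The alternatives were equal list length, −log10 q of 5 or more (in all lists or outside the Tumor list), an overlap of 50% of the shorter peak, no Tumor peak within 1000 bp, autosomes alone, ranking by q or fold, a 2500 bp window at gene ends and a count over loci in place of gene ends.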

Additional observations from a re-analysis of the deposited data

How the results depend on the processing

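With lists of equal length the number of Tumor-lacking regions was 1618 and their share of the regions open in the 4 other lists 13.2%. The Tumor list was not shortened there, so regions could only be lost. That share was 22.8% with −log10 q of 5 or more in all lists, 18.6% with that filter outside the Tumor list alone, and 20.2% with no Tumor peak within 1000 bp. In alternatives chosen after seeing the data, it was 27.3% when an EpCAM-high CK19 peak was not required and 25.4% when an EpCAM-high Sox9 peak was not. It was 22.3% and 23.7% when a Prog-like CK19 or a Prog-like Sox9 peak was not. The gene-end share was 21.8% with −log10 q of 5 or more, 25.6% with a window of 2500 bp and, in the alternatives added later, 15.6% with start sites in place of gene ends and 16.1% and 17.3% without requiring the EpCAM-high CK19 or Sox9 peak. The wider window put 36.6% in gene bodies and 37.7% between genes. At equal length the median width was 807 bp, chromosome 11 stood at 7.10% and chromosome 13 at 17.3%, and with −log10 q of 5 or more chromosome 11 also stood at 17.3%. List genes with a gene-end region numbered 7 at equal length, 33 with the wider window and 86 over loci with 10 kb flanks. Equal length moved the shares of all 18 other chromosomes, and −log10 q of 5 or more moved 1 and left 17 within range. Of the 20 gene-list counts, equal length moved 9, −log10 q of 5 or more 9, the wider window 7 and 10 kb flanks 17. No paired analysis was possible because each condition has 1 peak list and the lists carry no replicate number, although sample titles do, and for the same reason no replicate could be left out. Unknown depth limits every statement about a missing Tumor peak.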

Other observations

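Hairpins of 5 microRNAs overlapped a Tumor-lacking region: Mir7668 (chromosome 7), Mir8109 (chromosome 8), Mir8104 (chromosome 10), Mir3081 (chromosome 16) and Mir8092 (chromosome 19). The Mir8104 hairpin (chr10:122679315-122679415) lies in the strongest region of the Ppm1h run, whose lowest percentile was 93.5. The region at Mir3081 had a lowest percentile of 5.08. Mir92b lay 930 bp from a region with a lowest percentile of 31.4. The number of annotated hairpins and the number that overlap other open regions are not given here. Whether 5 differs from the background was therefore not tested, and the names are a description only.

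The regions missing from Prog-like Sox9 alone differed from the Tumor-lacking ones in rank. Their median percentile was 11.6 in Prog-like CK19 and 77.2 and 78.0 in the EpCAM-high lists, whereas Tumor-lacking regions had medians between 54.2 and 57.8 in every list that holds them. The other sets missing from 1 list were weak in its partner list too. The median was 32.0 in EpCAM-high Sox9 where EpCAM-high CK19 was missing, and 35.2 the other way round. It was 15.2 in Prog-like Sox9 where Prog-like CK19 was missing. The Tumor list has no partner list.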
